A study of Mus musculus with 10 samples.

Results

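Ribosomal protein genes were compared in the cochlea, the hearing organ of the inner ear, of newborn mice. The genes were chosen by name: protein-coding genes whose symbol begins with Rpl, Rps, Mrpl or Mrps followed by a number (or by the p of the stalk proteins or the a of Rpsa), leaving out the S6 kinases and pseudogenes. This gave 164 genes of the 54532 gene IDs in the deposited tables. The 86 called cytosolic encode proteins of the cytosolic ribosome, close relatives and, in Rps19bp1, an interactor of RPS19. The 78 called mitochondrial are named for the mitochondrial ribosome. Of the 164 genes, 161 had at least 10 counts in at least 5 libraries and were tested, 84 cytosolic and 77 mitochondrial.

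All animals were females on postnatal day 1 and carried Esrrg fl/fl, that is, both copies of Esrrg, which encodes the nuclear receptor estrogen-related receptor gamma, flanked by loxP sites. The 5 controls carried nothing further. The 5 animals labelled conditional knockout (cKO) also carried Sox10-Cre, a recombinase driven by regulatory sequence of Sox10. Sox10 is a gene of the otic epithelium, glia and melanocytes, and which cochlear cells lost the floxed gene was not measured here. Each library held the polyadenylated RNA of 1 animal, whose left and right cochleae were combined after the bony capsule had been taken off. No control carried Sox10-Cre alone, so an effect of the transgene and one of the deletion cannot be told apart.

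Library totals lay between 33.5 and 41.8 M counts (M, mega). Esrrg itself went against the labels: it had 1725 to 2414 counts in the controls and 2768 to 3632 in the libraries labelled cKO, a log2 fold change of 0.62 ± 0.12 (SE; edgeR quasi-likelihood test, adjusted p = 0.0292). The counts are per gene and cannot show whether the floxed exon was lost. Markers of the cochlea were present, with summed levels of 235.1 to 320.0 counts per 1000000 (CPM) for 6 hair cell genes and 3459 to 4167 CPM for 7 genes of supporting cells and otic epithelium. Genes of striated muscle summed to between 2.81 and 5.08 CPM, with Myh3 and Ckm under 10 counts in every library. Control 2 stood apart from the other 4 controls in the genes described here, and the comparisons of the genotypes are therefore also given without it.

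The cytosolic ribosome joins a small subunit, which reads the messenger RNA, to a large subunit, which forms the peptide bonds. Its protein genes are among the most actively transcribed genes of any cell, and their short messages often begin with a C followed by a run of C and T bases, the 5 prime terminal oligopyrimidine (TOP) run, through which translation responds to the kinase mTORC1. The mitochondrial ribosome is a separate machine that makes the few proteins encoded by mitochondrial DNA, all of them parts of oxidative phosphorylation. Its proteins are encoded in the nucleus and imported. Estrogen-related receptors are best known as regulators of nuclear genes for mitochondrial energy metabolism.

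The levels of the 2 classes, per length of gene, lay far apart. Mean FPKM (read pairs per kilobase of exon, the deposited unit, which corrects for library size) over the 10 libraries was highest for the stalk protein gene Rplp1, at 2781, followed by Rplp0, at 1139, and Rps3a1, at 1113. These are an acidic protein of the flexible stalk that recruits translation factors to the large subunit, the protein that anchors that stalk, and a protein of the small subunit. The highest mitochondrial genes were Mrpl34, at 47.0 FPKM, Mrpl52, at 45.3 FPKM, and Mrpl54, at 42.5 FPKM, all of the large subunit. The lowest tested mitochondrial genes, Mrps30 (2.87 FPKM), Mrpl33 (3.08 FPKM) and Mrps35 (3.14 FPKM), still lay above the lowest cytosolic ones.

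Paralogues and genes with shared exons made up the low end of the cytosolic class. Rpl22l1, a paralogue of Rpl22, had 40.9 FPKM, and Rps27rt had 9.71. Rpl39l, known from the testis, had 0.392 FPKM and 2 to 29 counts per library. The muscle paralogue Rpl3l had a mean of 1.6 counts and Rpl10l had 0 counts in every library, and neither was tested.

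Some core genes and the paralogue Rpl36al were also low, and their exons are shared, on the same strand, with another annotated gene. Rpl36al had a mean of 28.7 counts (0.57 FPKM), Rpl24 73.0 counts (1.88 FPKM), Rps10 134.9 counts (1.56 FPKM) and Rpl13a 856.7 counts (10.8 FPKM), against a median of 22355 counts over the tested cytosolic genes. Their same-strand partners, Gm49383, Gm28037, RPS10-NUDT3 and Gm45713, had 0 counts. The shares of their exon bases that overlap other genes were 24.5%, 47.0%, 28.7% and 35.4%. Mrpl53, with 88.0% of its exon bases shared, had 0 counts in every library. How reads in shared exons were counted is not given in the sources used here, so the values of these 5 genes are uncertain. Sharing was not confined to them: 72 of the 164 genes had exons that overlap another gene. In addition, 305 ribosomal protein pseudogenes took 0.0096% to 0.018% of the counts of a library. The part of shared exons or pseudogenes in the low values was not tested. Rpl24 and Rpl13a were added here after their values were seen.

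**Figure D1:**
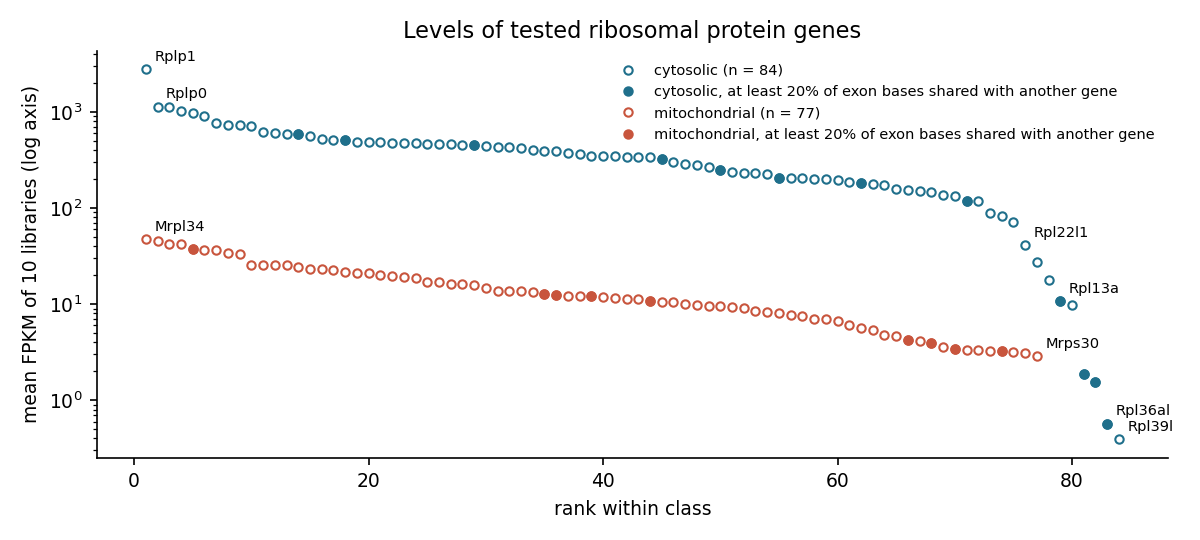
Mean FPKM over 10 libraries (log axis) of the 84 cytosolic (blue) and 77 mitochondrial (red) tested genes, in order of level within each class. Filled points share at least 20% of their exon bases with another gene. Most cytosolic genes lie above all mitochondrial genes, and the tail at the right holds paralogues such as Rpl39l and genes with shared exons such as Rpl36al.

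Some of the start sites show the pyrimidine run. The windows below hold 15 bases before and 15 after the annotated start, from the RefSeq promoter table on build GRCm38.p6, on the strand of the gene. Capitals mark a run that has a C within 3 bases of the start followed by at least 4 bases that are each C or T. They are shown for Rps6, the small subunit protein phosphorylated by S6 kinases, for Rplp2 of the stalk, for Rps21, and for Rps27 beside its relatives Rps27l and Rps27rt.
Rps6, chr4:86857353-86857382, minus strand: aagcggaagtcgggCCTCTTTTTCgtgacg
Rplp2, chr7:141447636-141447665, plus strand: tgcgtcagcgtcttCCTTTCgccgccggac
Rps21, chr2:180257364-180257393, plus strand: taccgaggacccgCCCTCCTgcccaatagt
Rps27, chr3:90213634-90213663, minus strand: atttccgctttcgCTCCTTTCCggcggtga
Rps27l, chr9:66946071-66946100, plus strand: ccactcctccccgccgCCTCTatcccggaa
Rps27rt, chr9:114982725-114982754, minus strand: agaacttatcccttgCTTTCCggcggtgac

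The annotated starts of other genes named below hold no such run in the same window.
Rpl41, chr10:128549154-128549183, minus strand: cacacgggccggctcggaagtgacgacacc
Rps28, chr17:33824548-33824577, minus strand: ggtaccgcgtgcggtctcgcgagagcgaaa
Mrpl12, chr11:120484622-120484651, plus strand: agctcgcctcctcccggatagagcgtcgct

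The promoter table listed 64 of the tested cytosolic genes, with 75 starts, and 68 of the mitochondrial genes, with 74 starts. The run was found at 36.0% of the cytosolic starts, 12.2% of the mitochondrial starts and 11.5% of all 32851 starts of the table. A start annotated a few bases away from the one used would miss it. The letters CCGGAAG, bound by the ETS family, were found on either strand, in the 250 bases before to 50 after the start, at 36.0% of the cytosolic and 33.8% of the mitochondrial starts, against 8.86% of all starts. The GC box GGGCGG was found at 61.3%, 52.7% and 35.7%, AAGATGGCG, bound by YY1, at 8.0%, 10.8% and 1.4%, and the NRF1 motif at 2.67%, 4.05% and 0.971%. TATAAA was found at 9.33% and 6.76% against 13.6% of all starts.

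The letters TNAAGGTCA, bound by estrogen-related receptors, were found on either strand at 2 of the 75 cytosolic starts (2.67%), at none of the 74 mitochondrial starts (0.0%) and at 1.28% of all starts. Both matches lie on the strand opposite to the gene, and they are printed on the strand of the gene with the match in capitals, 209 and 240 bases before the start.
Rps3: tagtcaatgaTGACCTTAAacttgtgacc
Rpl24: atgcaaaaagTGACCTTCAggttttacct
Neither gene passed the test between genotypes. The log2 fold change was -0.13 for Rps3 (edgeR, adjusted p = 0.789) and -0.27 for Rpl24 (adjusted p = 0.643), and 0.044 and -0.19 without control 2. These matches are descriptions of the letters and do not show binding.

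Control 2 held more ribosomal protein RNA than any other library. The summed level of the cytosolic genes was 48670, 78014, 49746, 49546 and 47874 CPM in controls 1 to 5, and 53194, 56060, 45832, 50565 and 45291 CPM in the libraries labelled cKO 1 to 5. For the mitochondrial genes it was 2328.7, 3268.1, 2351.7, 2301.6 and 2264.4 CPM in the controls, and 2324.4, 2378.3, 2208.1, 2287.8 and 2060.7 CPM in the libraries labelled cKO. In both classes control 2 was the highest of the 10 libraries, and the other 4 controls lay inside the range of the libraries labelled cKO. Cytosolic ribosomal protein genes took 7.67% of all counts in control 2, 4.89% to 4.97% in the other controls and 4.59% to 5.43% in the libraries labelled cKO. All 5 controls had 54770 ± 13020 CPM (SD, n = 5) and the libraries labelled cKO 50190 ± 4653 CPM (SD, n = 5). Controls 1, 3, 4 and 5 alone had 48960 ± 861 CPM (SD, n = 4). That spread is small in part because the most extreme control was set aside for these same values.

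**Figure D2:**
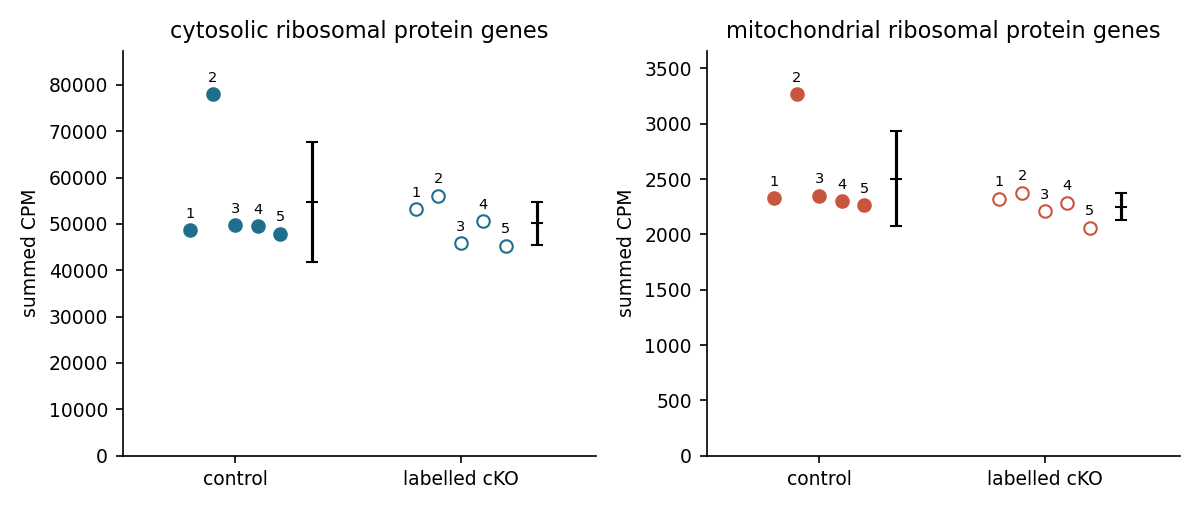
Summed CPM of the cytosolic (left) and mitochondrial (right) ribosomal protein genes in each library, numbered by replicate, from 0. The bars give the mean and 1 SD of 5 libraries per group. Control 2 lies at 78014 and 3268.1 CPM, and the other 9 libraries lie between 45291 and 56060 and between 2060.7 and 2378.3 CPM.

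The excess in control 2 was spread over both classes and both subunits. Set against the mean of the other 4 controls on the log2 CPM scale, control 2 was higher in 84 of 84 cytosolic genes, with a median difference of 0.68, and in 75 of 77 mitochondrial genes, with a median of 0.51. The median over all tested genes was -0.0034. It was the highest of the 10 libraries in 98.8% of the cytosolic and 94.8% of the mitochondrial genes, against 27.5% of all 18061 tested genes. The 2 mitochondrial genes below the other controls, Mrps2 (-0.17) and Mrps18b (-0.052), both of the small subunit and chosen after their values were seen, stood against the highest of the class, Mrps21 (0.82), of the same subunit.

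Both subunits were higher in that library. The median difference was 0.64 for the large and 0.72 for the small cytosolic subunit, and 0.50 and 0.53 for the large and small mitochondrial subunits. The summed CPM of large over small subunit genes was 1.31 in control 2, the lowest of the 10 libraries, which otherwise ranged from 1.36 to 1.41 in the cytosolic class. In the mitochondrial class it was 2.09, inside the range of 2.03 to 2.12 of the others. A single library allows no test of a condition. A difference in the number of cells of a type and one in RNA per cell cannot be told apart in whole tissue.

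Other features of control 2 are given beside this, and their part in it was not tested. Short messages were high there in general: over other protein-coding genes the median difference was 0.56 for 82 genes with a principal messenger RNA of under 500 bases and 0.56 for 755 genes of 500 to 1000 bases. It was -0.37 for 4693 genes of over 4000 bases. Ribosomal protein genes of that length were high there: 8 mitochondrial genes had a median of 0.47, and 1 cytosolic gene had 0.77. With the trend over gene length removed, the medians for the cytosolic and mitochondrial genes were 0.53 and 0.43. The 6 erythroid markers summed to 2930 CPM in control 2, 717.3 to 2221 in the other controls and 443.3 to 1296 in the libraries labelled cKO. The 5 Schwann cell and satellite glia markers summed to 984, 810.6 to 881.8 and 518.3 to 873.8 CPM, and the 6 spiral ganglion neuron markers to 697.5, 537 to 565.5 and 332.7 to 615.9 CPM. Macrophage markers (244.6 against at most 229.7 CPM) and brain markers (26.1 against at most 25.6 CPM) were also highest in control 2 among the controls. In the libraries labelled cKO, macrophage markers reached 291.7 CPM. Other lists were lowest of the 10 libraries in control 2: hair cells (235.1 CPM), periotic mesenchyme (2097 CPM) and cartilage and bone (8227 CPM). The other controls had 250.8 to 311.7, 2270 to 3179 and 8750 to 10800 CPM. The libraries labelled cKO had 244.0 to 320.0, 2531 to 2889 and 9324 to 11590 CPM. No marker of these lists was at 0 in all libraries. The 6 markers of proliferating cells, at 358.6 CPM, lay inside the range of the other controls, 272.3 to 419.7 CPM.

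**Figure D3:**
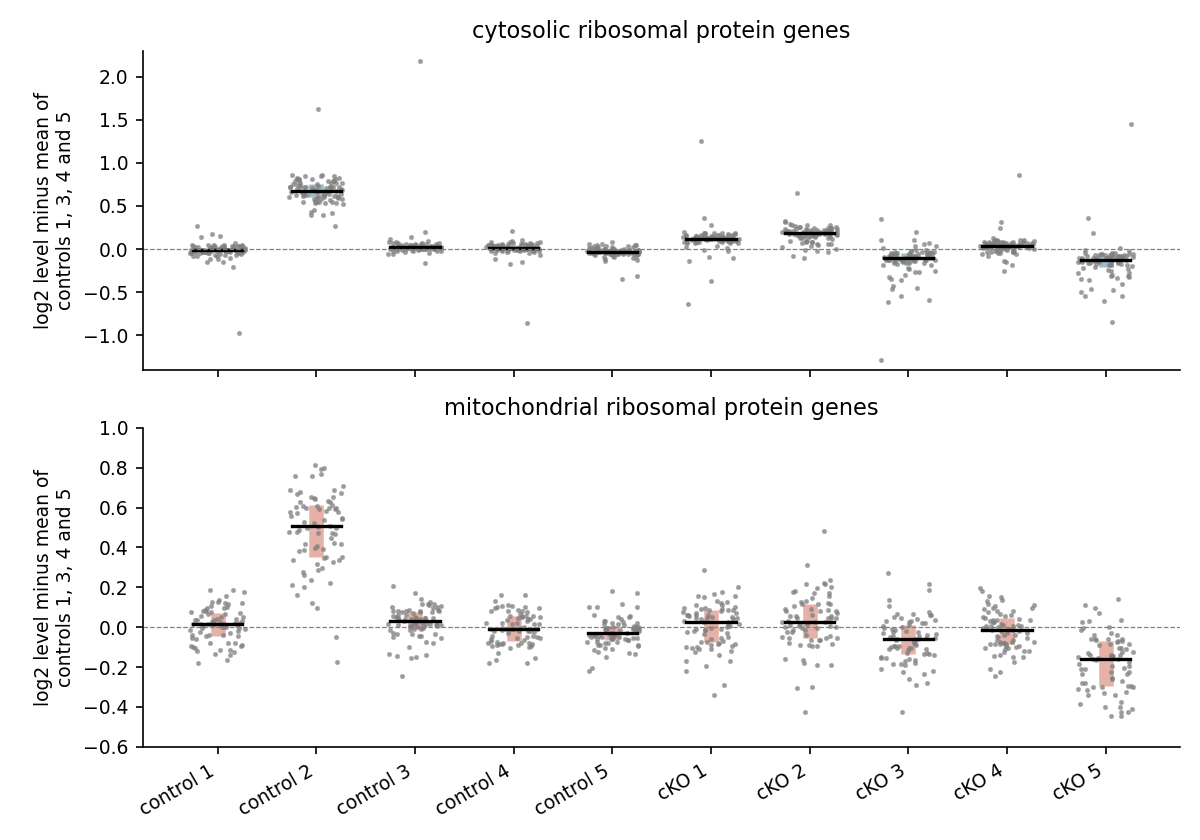
Log2 CPM of each tested gene minus its mean in controls 1, 3, 4 and 5, by library, for cytosolic (above) and mitochondrial (below) genes. Each point is 1 gene, the black line is the median and the shaded bar the middle 50% of genes. The medians of control 2 are 0.68 and 0.51, those of the libraries labelled cKO between -0.12 and 0.19 and between -0.16 and 0.027.

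Between genotypes, no ribosomal protein gene passed the test. With all 10 libraries, 0 of 84 cytosolic and 0 of 77 mitochondrial genes were called in either direction at an adjusted p under 0.05 (edgeR quasi-likelihood test), against 0.543% of all tested genes called lower and 0.072% called higher. The smallest adjusted p was 0.45 in the cytosolic and 0.413 in the mitochondrial class. At an unadjusted p under 0.05, 2 cytosolic and 4 mitochondrial genes were lower and 0 higher, against 5.62% of all tested genes lower and 3.81% higher. In CPM, 0 of the 161 genes had groups that did not overlap, against 1.66% of all tested genes lower and 1.13% higher in every library labelled cKO than in every control. Without control 2 the count was again 0 in either class, against 2.95% of all tested genes lower and 1.65% higher.

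Nearly all estimates nevertheless lay on the lower side. Of the cytosolic genes, 81 of 84 had a log2 fold change below 0, with a median of -0.14 and a range of -0.50 to 0.086, and of the mitochondrial genes 75 of 77, with a median of -0.16 and a range of -0.33 to 0.039. Over all tested genes 52.3% were below 0 and the median was -0.0096. Other short messages lay lower too. Of 755 other protein-coding genes with a principal messenger RNA of 500 to 1000 bases, 81.7% were below 0, with a median of -0.16. In that range the medians were -0.14 (46 cytosolic genes) and -0.18 (22 mitochondrial genes). At 1000 to 2000 bases, 70.3% of 3249 other genes were below 0. The medians there were -0.073 for other, -0.10 for cytosolic and -0.12 for mitochondrial genes. The median was -0.13 for the large and -0.14 for the small cytosolic subunit, and -0.18 and -0.16 for the mitochondrial subunits. All genes of a library share its composition, so these counts of genes are not counts of independent results. Among the marker lists, only that of the brain differed with the label without overlap. Its 6 genes summed to 19.7 to 26.1 CPM in the controls and 8.22 to 11.5 CPM in the libraries labelled cKO. In every other list the ranges of controls and libraries labelled cKO overlapped. The part of such cells in the ribosomal protein values was not tested.

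Control 2 decided the direction in the cytosolic class and most of the size in the mitochondrial class. Without it, 27 of 83 cytosolic genes lay below 0 and 56 above, with a median of 0.026, and 54 of 77 mitochondrial genes lay below, with a median of -0.053. Over all tested genes 51.6% then lay below 0, with a median of -0.0061. The median standard error fell from 0.139 to 0.0735 in the cytosolic and from 0.119 to 0.0851 in the mitochondrial class, and still 0 genes of either class were called, with smallest adjusted p of 0.426 and 0.424 (edgeR), against 0.986% of all tested genes called lower and 0.0947% called higher. At an unadjusted p under 0.05 the small subunit gene Rps21 and the mitochondrial Mrpl15 were lower and the stalk gene Rplp0 was higher, against 6.32% of all tested genes lower and 3.92% higher. With the library labelled cKO 5 left out as well, which had the lowest summed level of both classes, the medians were 0.062 and -0.023.

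**Figure D4:**
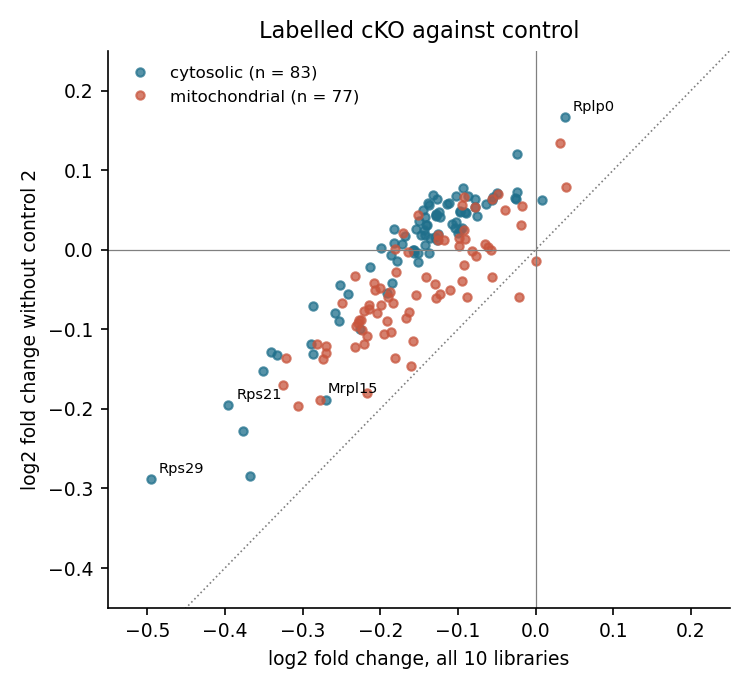
Log2 fold change of the libraries labelled cKO against control with all 10 libraries (x axis) and without control 2 (y axis) for the 83 cytosolic (blue) and 77 mitochondrial (red) genes tested in both. The dotted line marks equal values. All but 2 mitochondrial genes lie above it, and the cytosolic cloud, centred on -0.14 along the x axis, is centred on 0.026 along the y axis.

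Among small subunit genes, Rps29, which encodes a short zinc-binding protein, had the lowest estimate. Rps29 (ENSMUSG00000034892, chr12:69157722-69159186 on GRCm38, no exons shared) had 256, 497, 288, 285 and 281 CPM in controls 1 to 5 and 284, 258, 181, 262 and 154 CPM in the libraries labelled cKO 1 to 5. The libraries labelled cKO 3 and 5 lay below all controls and the other 3 among them. Its log2 fold change was -0.50 ± 0.20 (SE, edgeR, adjusted p = 0.45), and -0.29 ± 0.17 without control 2 (adjusted p = 0.641).

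Rps21, a protein of the small subunit (ENSMUSG00000039001, chr2:180257377-180258445, no exons shared), whose start carries the run printed above, had 356, 641, 349, 373 and 378 CPM in the controls. In the libraries labelled cKO it had 331, 376, 296, 329 and 263 CPM. All of these but the second lay below every control. The log2 fold change was -0.40 ± 0.16 (edgeR, adjusted p = 0.455), and -0.20 ± 0.084 without control 2 (adjusted p = 0.426), the smallest adjusted p of the class in that comparison.

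Rps28, another short small subunit protein, had 207, 373, 213, 222 and 208 CPM in the controls and 229, 221, 155, 208 and 146 CPM in the libraries labelled cKO. Rpl41, which encodes the shortest protein of the large subunit, had 633, 1240, 699, 706 and 706 CPM against 725, 717, 548, 661 and 496 CPM. As for Rps29, the libraries labelled cKO 3 and 5 were the lowest of the 10 and control 2 the highest. The log2 fold changes were -0.35 ± 0.18 and -0.34 ± 0.17 (edgeR, adjusted p = 0.56 and 0.576), and -0.15 and -0.13 without control 2. Rpl37 of the large subunit (-0.29 ± 0.15) and Rps27l (-0.23 ± 0.12) completed the 6 with the smallest p, with adjusted p of 0.591 and 0.593, and had -0.12 and -0.099 without control 2.

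The stalk protein genes lay on both sides of 0. Rplp0 had 1737, 2542, 1741, 1725 and 1648 CPM in the controls and 1861, 2056, 1692, 1836 and 2195 CPM in the libraries labelled cKO. Without control 2, 4 of the 5 libraries labelled cKO lay above every control, with a log2 fold change of 0.17 ± 0.072 (edgeR, adjusted p = 0.438), and with it the value was 0.037 ± 0.12 (adjusted p = 0.938). Rplp1 had 1315, 2285, 1353, 1306 and 1207 CPM in the controls and 1375, 1484, 1201, 1356 and 1089 CPM in the libraries labelled cKO. In the library labelled cKO 5 Rplp0 was thus at its highest and Rplp1 at its lowest level of that group. Rplp2 had a fold change of -0.18 ± 0.16 and Rplp1 one of -0.20 ± 0.16, and without control 2 these were 0.026 and 0.0019.

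Other abundant core genes changed sign with control 2. Rpsa, a small subunit protein also known as a laminin receptor, had 1410, 2284, 1418, 1380 and 1350 CPM in the controls and 1524, 1596, 1349, 1457 and 1331 CPM in the libraries labelled cKO. Its log2 fold change was -0.11 ± 0.14 and turned to 0.058 without control 2. Rpl3, which reaches towards the peptidyl transferase centre and lies 0.913 Mb from Sox10, the gene whose sequence drives Cre, had -0.076 ± 0.11 (edgeR, adjusted p = 0.846), and 0.042 without control 2. Rps6 had -0.10 ± 0.12 and Rps3a1 -0.14 ± 0.14, and both lay above 0 without control 2, at 0.035 and 0.025.

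The paralogues gave no call either. Rpl22l1 had 71.1, 138, 84.6, 76.9 and 74.8 CPM in the controls and 71.1, 79.8, 73.6, 82.3 and 66.8 CPM in the libraries labelled cKO, a log2 fold change of -0.25 ± 0.16 that was -0.044 without control 2. Rpl7l1 was 1 of the 3 cytosolic genes above 0, at 0.0089 ± 0.097, and Rps27rt had -0.15 ± 0.20. Without control 2 they had 0.062 and -0.016. The third, Rpl39l, had 0.0469 to 0.846 CPM in the controls, wider than the 0.200 to 0.488 CPM of the libraries labelled cKO, and its estimate of 0.086 carries a standard error of 0.65. Rps19bp1, an interactor of RPS19 that the name pattern takes in and that lies 1.1 Mb from Sox10, had -0.19 ± 0.13 (edgeR, adjusted p = 0.659), and -0.054 without control 2. Rps4l is annotated as a transcribed pseudogene and was not among the 164 genes.

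Among mitochondrial genes, Mrpl15 of the large subunit (ENSMUSG00000033845, chr1:4773206-4785739, no exons shared) had the smallest p. It had 28.6, 39.4, 30.7, 31.7 and 26.9 CPM in the controls and 25.7, 28.1, 25.4, 26.9 and 23.5 CPM in the libraries labelled cKO. Control 5 overlapped the upper end of the libraries labelled cKO and the other controls lay above all 5. The log2 fold change was -0.28 ± 0.10 (edgeR, adjusted p = 0.413), and -0.19 ± 0.080 without control 2 (adjusted p = 0.424).

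Mrpl12, which forms the stalk of the mitochondrial large subunit and also binds the mitochondrial RNA polymerase (ENSMUSG00000039640, chr11:120484613-120489065, with 13.1% of its exon bases shared with Gm16755 on the opposite strand), had the lowest estimate. Its levels were 35.0, 53.1, 35.7, 34.3 and 28.5 CPM in the controls and 30.9, 29.7, 32.8, 29.9 and 25.6 CPM in the libraries labelled cKO. Control 5 again lay among the latter. The log2 fold change was -0.33 ± 0.14 (adjusted p = 0.491), and -0.17 ± 0.089 without control 2 (adjusted p = 0.562).

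The other genes of the smallest p in this class were Mrps18c (-0.31 ± 0.13, with 23.2% of its exon bases shared), Mrpl51 (-0.27 ± 0.12), Mrpl54 (-0.27 ± 0.13) and Mrpl52 (-0.32 ± 0.16), with adjusted p of 0.479 to 0.543 (edgeR). Without control 2 the same 4 genes had -0.20, -0.14, -0.13 and -0.14. Only Mrpl49 (0.039 ± 0.095) and Mrps34 (0.032 ± 0.13) lay above 0 with all 10 libraries. Mrps34, whose exons overlap Nme3 and Mapk8ip3 over 77.8% of their bases, had 33.7 CPM in the library labelled cKO 2 and 23.7 to 26.1 CPM in the other 4 of that label.

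The fold changes were ordered by length within the cytosolic class. Spearman's rho between length and log2 fold change, across the 84 genes, was 0.269 for the merged exon length that the deposited FPKM values use, 0.509 for the length of 1 principal messenger RNA per gene and 0.691 for its coding length. Across the 77 mitochondrial genes the values were 0.163, 0.232 and 0.48, and across all tested protein-coding genes 0.28 (15250 genes), 0.343 and 0.314 (15240 genes each). All points of such a correlation share the same 10 libraries, so it is a description without a test.

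The relation in the cytosolic class did not rest on control 2. Without that library, rho with coding length was 0.711 in the cytosolic class, 0.161 in the mitochondrial class and 0.0301 over all tested protein-coding genes. The 12 cytosolic genes of under 300 coding bases centred on a log2 fold change of -0.29, and on -0.13 without control 2. The 21 genes of 600 to 1200 bases centred on -0.10 and 0.054. Over the 293 other protein-coding genes of under 300 coding bases the medians were -0.18 and -0.059. Among the genes printed above, Rps29 has 168 coding bases, Rps28 has 207, Rps21 has 249 and Rpl41 has 75, and Rplp0 has 951.

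The order by length was not equal in all libraries. Against the mean of controls 1, 3, 4 and 5, which for those 4 includes the library itself, rho with coding length over the cytosolic genes was -0.459 in control 2 and -0.335 in control 5, and 0.0139 to 0.199 in controls 1, 3 and 4. In the libraries labelled cKO 1 to 5 it was -0.138, 0.368, 0.675, 0.43 and 0.677. The libraries labelled cKO 3 and 5, in which the shortest genes were lowest, were also those with the lowest summed level. In the mitochondrial class rho was -0.568 in control 2 and 0.377 in the library labelled cKO 5, and between -0.367 and 0.206 in the others. What sets the order was not tested.

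**Figure D5:**
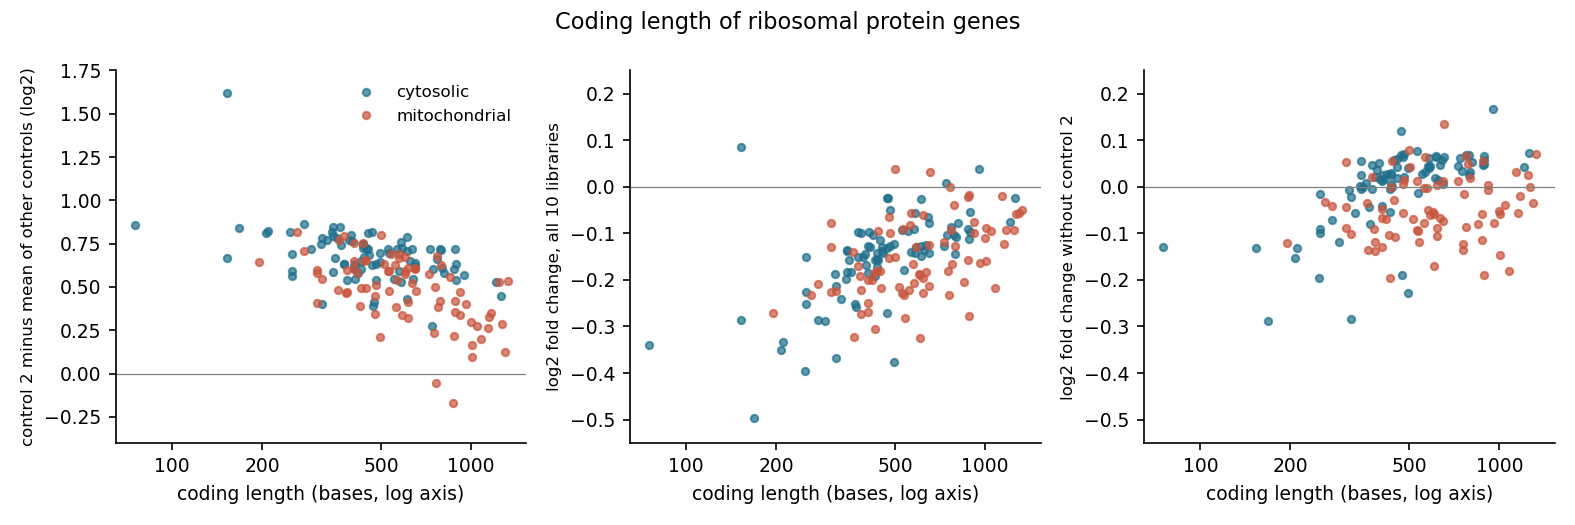
Coding length (bases, log axis) of each ribosomal protein gene against the difference of control 2 from the other controls (left), the log2 fold change with all 10 libraries (middle) and that without control 2 (right; Rpl39l was not tested there). In the cytosolic class (blue) the shortest genes are the lowest in the middle and right panels, with rho of 0.691 and 0.711.

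Other genes of the same machinery gave 0 calls in 9 lists, with or without control 2. Over all tested genes 0.543% were called lower and 0.072% higher, and 0.986% and 0.0947% without control 2. At such shares, 0 calls in lists of this size say little about the lists. The 8 ribosomal proteins outside the name pattern all lay below 0, among them Fau, the small subunit protein fused to a ubiquitin-like peptide (-0.15 ± 0.15), Rack1, a scaffold on the small subunit (-0.077 ± 0.12), and Chchd1 of the mitochondrial small subunit (-0.25 ± 0.14). Their median was -0.12, and 0.0017 without control 2. Of 14 TOP messages for translation factors and related proteins, 9 lay below 0 with a median of -0.025, and the median was 0.075 without control 2. Eif4b, an initiation factor, was the 1 gene of that list at an unadjusted p under 0.05, with 0.18 ± 0.082 (edgeR, adjusted p = 0.508), and its level in control 2, 447.4 CPM, was below the 456.5 to 509.8 CPM of the other controls.

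Genes that make ribosomes or act with them lay more often below 0 than above it, except among the regulators of TOP translation and mTORC1. The 30 genes of cytosolic ribosome assembly had a median of -0.066 with 22 below 0, and the 15 genes of RNA polymerase I and its factors one of -0.028 with 10 below. The 23 genes of mitochondrial ribosome assembly had a median of -0.065 with 18 below, among them Mterf3, which acts in mitochondrial transcription and ribosome assembly (-0.26 ± 0.10, adjusted p = 0.45). Of the 11 mitochondrial translation factors tested, 8 lay below 0 with a median of -0.024, and Guf1, an elongation factor, had -0.24 ± 0.10 (edgeR, adjusted p = 0.491). The 2 mitochondrial ribosomal RNAs had a median of -0.11, and 0.037 without control 2; the libraries were enriched for polyadenylated RNA. The 12 regulators of TOP translation and mTORC1 had a median of 0.032 with 4 below 0, and the 19 initiation factors one of -0.068 with 14 below. Without control 2 the medians were -0.027 for cytosolic assembly, -0.015 for RNA polymerase I, -0.010 for mitochondrial assembly and -0.0001 for mitochondrial translation factors. They were 0.0014 for the regulators and -0.026 for the initiation factors.

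The same lists were set against control 2. The median difference from the other controls was 0.63 for the mitochondrial ribosomal RNAs, 0.52 for the other TOP messages and 0.49 for the ribosomal proteins outside the pattern. It was 0.13 for cytosolic ribosome assembly, 0.30 for mitochondrial ribosome assembly, 0.024 for mitochondrial translation factors and -0.29 for the mTORC1 regulators. Cytosolic genes whose start holds the pyrimidine run (26 genes) had a median of 0.69 there, and those without it (38 genes) one of 0.68. Between genotypes the same groups had medians of -0.15 and -0.13, and 0.017 and 0.031 without control 2.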

How the data were processed

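Per the labels' protocols, poly A RNA of 10 cochlear samples was read as paired reads of 150 bp. The authors deposited whole-number counts per Ensembl gene and FPKM values, in which each count is divided by a gene length and a library factor. The submitters' processing notes name STAR 2.5, HTSeq 0.61, DESeq2 2 and the build mm10. Which annotation was counted, and whether strand was used, is not given in the sources used here. Gene types, positions, lengths and exon overlaps were taken from GENCODE M21 (GRCm38), which held 54495 of the 54532 gene IDs.

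The deposited counts were tested with edgeR 4.0.16 (R 4.3.3; quasi-likelihood F-test, TMM factors, robust estimation, genotype label as the only term) on 18061 genes with at least 10 counts in at least 5 libraries, with Benjamini-Hochberg adjustment over all of them and a threshold of 0.05. SE is the standard error obtained from the fold change and its F value. Each library is 1 animal. CPM values use the TMM factors, and single libraries were compared on log2 CPM with a prior count of 2. The procedure was tested on simulated data. The members and lists were chosen with earlier results of these data known. Genes were named by a rule: in each class and direction the 6 smallest p, the 3 highest and lowest by mean FPKM, the stalk proteins, Rpsa, Rpl3, Rps6 and the paralogues; Rps27, Rps3, Rpl24, Rpl13a and 3 small-subunit mitochondrial genes were added after their values were seen. Genes of the lists were named where an unadjusted p was under 0.05 or as examples. Promoter letters came from the RefSeq table of GRCm38.p6.

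Alternatives were DESeq2 1.42.0 (size factors alone, and its test), upper-quartile factors, other filters, limma 3.58.1 (voom with quality weights, and log2(FPKM + 1)), the replicate number as a block, a per-library loess offset for gene length, a threshold of 0.1 and leaving out each library. Transcript lengths and leaving out control 2 with cKO 5 were chosen after seeing the data.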

Additional observations from a re-analysis of the deposited data

Results flagged for a closer look

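In 24 of 72 groups of 5 libraries examined, the gap between the most extreme library and its neighbour was over 0.71 of the group's range, which chance gives in about 5% of groups. Control 2 was that library in 23 of the 24, always as the highest, and the values of 1 library move together, so the 23 are not independent. The levels of its classes were 78014 and 3268.1 summed CPM and median log2 differences from the other controls of 0.68 and 0.51, for the cytosolic and mitochondrial genes. The other controls had 47874 to 49746 and 2264.4 to 2351.7 summed CPM.

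Single genes flagged in control 2, in CPM, were for the small cytosolic subunit Rps29 at 497, Rps21 at 641, Rps28 at 373, Rps27l at 84.7, Rps3a1 at 1670.0, Rpsa at 2284, Rps6 at 971 and Rps27rt at 5.28. For the large cytosolic subunit they were Rpl41 at 1240.1, Rpl37 at 426, Rplp0 at 2542, Rplp1 at 2285, Rplp2 at 793, Rpl3 at 1476 and Rpl22l1 at 138. The mitochondrial genes were Mrps18c at 18.8, Mrpl51 at 61.1, Mrpl52 at 84.0 and Mrpl33 at 34.9. The gap was largest for Rps3a1, at 0.966 of the range, and the other 4 controls lay between 1004 and 1026 CPM.

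The 1 flagged value outside control 2 was Mrps34 in the library labelled cKO 2, at 33.7 CPM against 23.7 to 26.1 CPM in the other 4. Its exons overlap those of 2 other genes.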

How the results depend on the processing

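In all fits, 0 ribosomal protein genes were called, also at an adjusted p of 0.1: over 21 fits the smallest adjusted p of a class lay between 0.177 and 0.693 (cytosolic) and between 0.177 and 0.771 (mitochondrial). The replicate block gave medians of -0.11 and -0.16. It put 10 cytosolic and 8 mitochondrial genes at an unadjusted p under 0.05 (11.9% and 10.4%, edgeR), against 12.1% of all tested genes. Same-numbered libraries deviated together with correlations of 0.0666 to 0.138, and 3 of 5 matched their own number best. These values do not settle whether the numbers are pairs, and the main test did not take them as such. With the block the median SE fell from 0.139 to 0.0950 (cytosolic) and from 0.119 to 0.0985 (mitochondrial). Over all tested genes it fell from 0.130 to 0.114. The block changed no call.

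Leaving out 1 library moved the cytosolic median between -0.19 and 0.026 and the mitochondrial between -0.20 and -0.053, in each case the upper value without control 2. With cKO 5 left out too, both medians moved further, to 0.062 and -0.023; limma-voom with quality weights gave -0.0097 (50 of 84 below 0) and -0.068 (61 of 77), and the length offset -0.067 (71 of 84) and -0.097 (66 of 77). The correlation with merged exon length, 0.269 and 0.163 in the main fit, was -0.121 and -0.343 after the length offset. That offset is fitted over all tested genes and removes their trend, not the trend within a class, and the sign turned in both classes. The correlation was 0.509 and 0.691 in the cytosolic and 0.232 and 0.48 in the mitochondrial class with messenger RNA and coding length. In the mitochondrial class it was 0.036 by limma-voom, 0.256 on log2(FPKM + 1), and -0.03 (without control 2) to 0.224 with 1 library left out. The difference of control 2 was 0.73 and 0.56 with upper-quartile factors, 0.53 and 0.43 with the length trend removed, and 0.46 for the mitochondrial class on log2(FPKM + 1). The cause of these shifts was not tested.

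Of 475 values of 32 named genes, 451 kept their direction and 24, over 12 genes, did not. With limma-voom Mrps30 turned to 0.023, Rpsa to 0.028 and Rpl3 to 0.016. With 1 library left out, Rplp0 ranged from -0.016 to 0.17, Rpl39l from -0.21 to 0.23 in the 5 such fits whose filter it passed, Rpl7l1 from -0.044 to 0.062, Mrpl49 from -0.0093 to 0.079 and Mrps34 from -0.068 to 0.13. Values turned without control 2 for 7 genes: Rplp1 (-0.27 to 0.0019), Rps3a1 (-0.19 to 0.025), Rplp2 (-0.25 to 0.026), Rpsa (-0.16 to 0.058), Rpl3 (-0.12 to 0.042), Rps6 (-0.15 to 0.035) and Mrps30 (-0.11 to 0.070). Depth limits Rpl39l, Rpl36al, Rpl24, Rps10 and Rps27rt, whose lowest counts in a library were 2, 12, 51, 78 and 92; the other tested genes had at least 220.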
